A study of Homo sapiens with 9 samples.

Results

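A set of 10 genes of lipoprotein biology was followed through HCT116 cells, a human colorectal carcinoma line, under activin and hepatocyte growth factor (HGF). They were listed by name as APOA1, APOA2, APOA4, APOB, APOC1, APOC3, APOE, APOH, APOM and MTTP, and 9 of the 10 had a row among the 33861 genes of the deposited table. APOA4 had no row and was not analysed here. The list was chosen by values of these same libraries, in which several of its genes were seen to be higher after treatment, so every difference between groups given for these genes is a description and carries no p.

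RNA sequencing was performed on 9 libraries in 3 groups of 3. The NC libraries came from control cells, the Activin libraries from cells given 100 ng/mL activin A for 5 days, and the Activin+HGF libraries from cells given the same activin treatment and then 20 ng/mL HGF for another 5 days. All 3 groups were the same single cell line, grown in DMEM with serum, and all libraries were made after depletion of ribosomal RNA. The culture time of the control cells is not given in the sources used here, so the length of culture and the treatment cannot be told apart, and neither can a later harvest and HGF. The labels do not say whether the replicates were separate cultures, so the spread between them may be technical.

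Apolipoproteins are the protein coats of lipoproteins, the particles that carry cholesterol and triglyceride through blood, and most of them are made by hepatocytes and by absorptive enterocytes of the small intestine. APOB is the scaffold of chylomicrons and very low density lipoproteins, and it is loaded with lipid in the endoplasmic reticulum by microsomal triglyceride transfer protein, whose large subunit is encoded by MTTP. APOA1 and APOA2 are the main proteins of high density lipoprotein. APOE is a ligand for lipoprotein uptake by cells, APOC1 and APOC3 are small exchangeable apolipoproteins that modulate lipolysis and uptake, APOM carries sphingosine 1-phosphate on high density lipoprotein, and APOH, or beta-2 glycoprotein I, is a plasma protein that binds phospholipids.

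The sequences upstream of APOE, APOA2 and APOH are shown because these 3 genes had higher values in every Activin+HGF library than in any NC library and had entries in the promoter table used. They are the 250 bases before the RefSeq start of each gene (GRCh38.p14), 5′ to 3′ on the strand of the gene, with matches to a searched motif in capitals. APOE is chr19:44905546-44905795 on the plus strand, APOA2 is chr1:161223629-161223878 on the minus strand and APOH is chr17:66229416-66229665 on the minus strand.
APOE: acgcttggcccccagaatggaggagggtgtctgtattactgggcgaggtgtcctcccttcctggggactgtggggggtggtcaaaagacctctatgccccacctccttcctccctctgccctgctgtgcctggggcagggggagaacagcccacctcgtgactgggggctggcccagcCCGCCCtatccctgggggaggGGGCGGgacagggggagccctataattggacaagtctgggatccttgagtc
APOA2: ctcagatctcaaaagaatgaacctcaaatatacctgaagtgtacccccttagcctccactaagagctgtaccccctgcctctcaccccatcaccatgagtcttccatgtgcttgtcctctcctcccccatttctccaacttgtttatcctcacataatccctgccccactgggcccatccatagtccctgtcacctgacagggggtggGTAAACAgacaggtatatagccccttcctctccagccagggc
APOH: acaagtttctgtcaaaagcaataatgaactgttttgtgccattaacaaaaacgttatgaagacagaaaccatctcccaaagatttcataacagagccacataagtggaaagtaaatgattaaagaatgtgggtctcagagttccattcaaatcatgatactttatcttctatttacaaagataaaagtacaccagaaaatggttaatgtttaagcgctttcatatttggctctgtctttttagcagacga

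Of the 10 genes, 7 had an entry (APOA2, APOA4, APOC1, APOE, APOH, APOM and MTTP), and 5 motifs were searched on both strands of these windows. The capitals upstream of APOE are 2 matches to the GC box GGGCGG, the first on the reverse strand as CCGCCC at -72 to -67 and the second at -51 to -46, counted back from -1 at the base before the start. GC boxes were also found upstream of APOC1 and MTTP, and 42.3% of the 27305 promoters in the table hold one. The capitals upstream of APOA2 are GTAAACA at -42 to -36, the reverse complement of the forkhead motif TGTTTAC, which 2.98% of all promoters hold. The TATA box TATAAA (11.1% of all promoters), the HNF4 motif CAAAGTCC (1.02%) and the AP-1 motif TGANTCA (6.60%) had no match in any of the 7 windows. The 3 windows differed in base composition, with 64.8% GC upstream of APOE, 52.8% upstream of APOA2 and 33.2% upstream of APOH, beside a median of 58.0% over all promoters. The RefSeq start of APOH lies inside the deposited span of the gene, chr17:66212033-66256525, and not at its end.

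The libraries held 57453977 to 77016167 counts, of which the 9 genes together took 128 to 848. A count of 3, taken as the limit that a count of 0 allows, was worth 0.0373 to 0.0551 CPM (counts scaled to library size), and this covers counting error only. Among counts of 1 to 40 in the whole table, 35.0% were multiples of 4 and the commonest was 4, and how reads were counted is not given in the sources used here. If a single observation could enter as 4, a count of 0 would allow more than 3, and the lower bounds given below would be smaller. A pair of libraries stood apart from their groups. Over log2(FPKM + 0.1), FPKM being a read level scaled to gene length and library depth, Activin replicate 2 correlated at 0.922 to 0.926 with its own group and at up to 0.927 with an Activin+HGF library, and Activin+HGF replicate 1 had the lowest mean correlation in its group, 0.934. Where leaving out both libraries ended a call of a gene named below, other than a cell type marker, that is said beside the call.

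Summed over the 9 genes, FPKM was 1.37, 0.98 and 1.24 in NC replicates 1 to 3, 1.79, 3.15 and 1.80 in Activin replicates 1 to 3, and 5.04, 5.15 and 4.04 in Activin+HGF replicates 1 to 3. The 3 ranges did not overlap, and the Activin+HGF libraries were above all others. These are low levels in a colorectal line: by mean FPKM, 13705 genes were above APOE in NC cells, 12688 in Activin cells and 7423 in Activin+HGF cells. In libraries from bulk cells, more cells expressing a gene and more RNA per cell cannot be told apart.

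**Figure D1:**
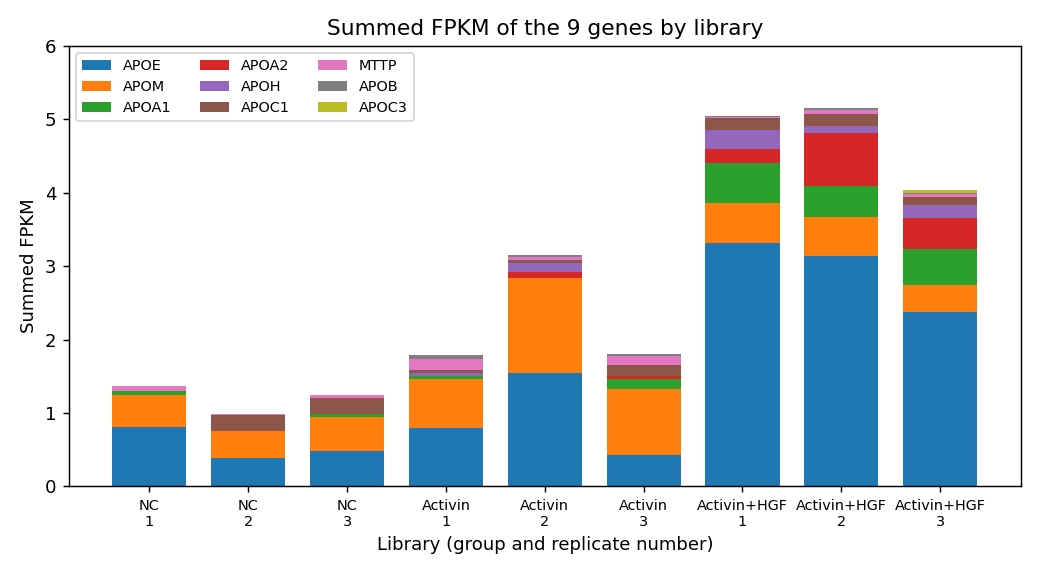
Stacked bars of FPKM of the 9 genes (y axis, summed FPKM) in each of the 9 libraries (x axis, group and replicate number), with a color for each gene. The NC bars end at 0.98 to 1.37, the Activin bars at 1.79 to 3.15 and the Activin+HGF bars at 4.04 to 5.15, and APOE is the largest part of every bar but that of Activin replicate 3.

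The makeup of the sum differed as well. APOE gave 38.7 to 59.1% of it in NC libraries, 23.9 to 49.2% in Activin libraries and 58.7 to 65.9% in Activin+HGF libraries. APOM was the second gene in NC cells and in 2 of the Activin libraries, the first in Activin replicate 3, and it was overtaken by APOA1 or APOA2 in each Activin+HGF library. The 7 genes other than APOE and APOM summed to 0.12 to 0.29 FPKM in NC, 0.31 to 0.48 in Activin and 1.18 to 1.48 in Activin+HGF libraries. The number of the 9 genes with any count was 4 to 5 in NC libraries, 7 in each Activin library and 8 to 9 in Activin+HGF libraries. In the whole table, 24622 to 25766 genes had a count in NC, 23349 to 25237 in Activin and 23099 to 23683 in Activin+HGF libraries. The 9 in Activin+HGF replicate 3 included APOC3 at 4 counts. As the list was chosen by values of these libraries, the number of its genes with a count is a description only.

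Differences between groups were fitted over 20988 genes with edgeR. Calls needed an adjusted p (Benjamini-Hochberg) under 0.05 together with a change of 1 or more, up or down, on the log2 scale. Of the 9 genes, 8 were in the fit, and APOC3 fell below the filter on low counts. APOA1, APOA2, APOB and APOH passed that filter only through the treated groups in which they were high, so the counts below are no evidence about the list. Between Activin and NC, 1 of the 8 was called higher (APOB) and 0 lower, while 6.78% of all tested genes were called higher and 4.62% lower. Between Activin+HGF and Activin, 1 was called higher (APOE), beside 3.87% of all genes higher and 4.21% lower. Between Activin+HGF and NC, 5 were called higher (APOA1, APOA2, APOB, APOE and APOH), beside 11.3% of all genes higher and 10.2% lower. No member was called lower by edgeR or DESeq2 in any comparison, and 0 of the 8 had a negative change at an unadjusted p under 0.05. In the last comparison the same 5 genes were the ones whose groups did not overlap. This rests on the same values as the calls, and the share of all genes without overlap was not computed. The 3 comparisons share libraries and are not independent of each other.

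With APOA2, APOB and APOH set to their lower bounds against NC, the median log2 fold change of the 8 genes was 0.82 for Activin against NC, 1.57 for Activin+HGF against Activin and 2.66 for Activin+HGF against NC. The medians over all tested genes were 0.02, -0.04 and -0.03. Since the list was chosen by values of these same libraries, its medians, like its counts, are no evidence about it. Scaling by library totals alone moved the all-gene medians to 0.10, -0.38 and -0.30 and lowered the share of calls that were higher from 47.9 to 15% for Activin+HGF against Activin and from 52.6 to 33.4% for Activin+HGF against NC. The members' calls and their directions were the same under that scaling. The 5 calls of Activin+HGF against NC became 3 when NC replicate 1, 2 or 3 or Activin+HGF replicate 1 or 3 was left out, 4 without Activin+HGF replicate 2, and 4 without both libraries that stood apart.

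**Figure D2:**
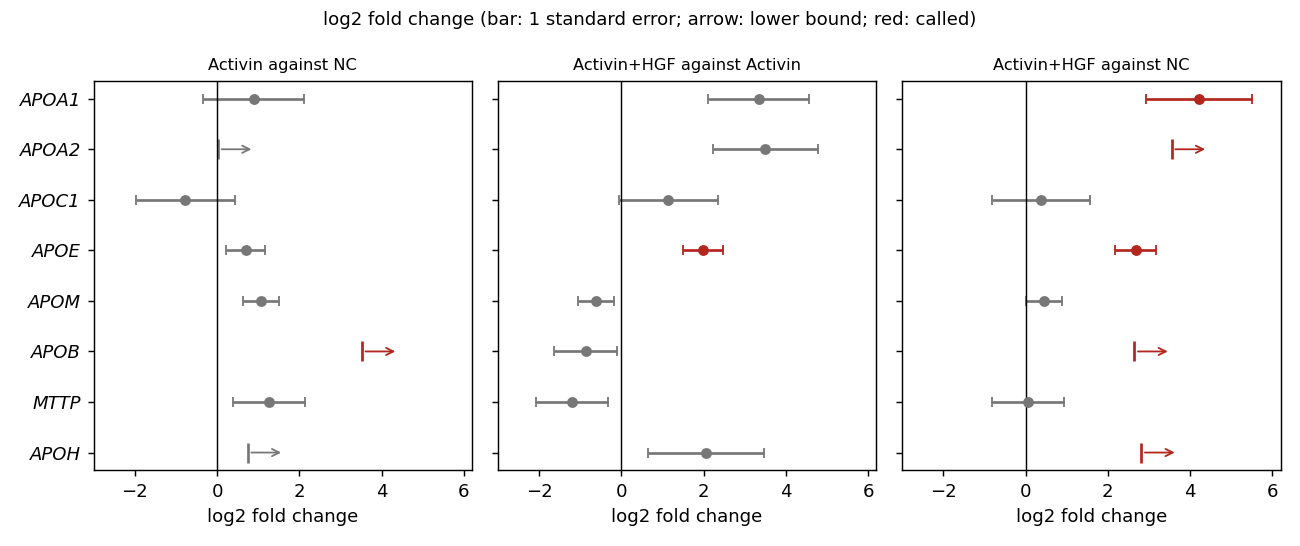
Fitted log2 fold changes (x axis) of the 8 tested genes (y axis) in the 3 comparisons, with bars of 1 standard error and arrows starting at the lower bound where the control group was at 0; red marks called genes. In the right-hand panel APOA1, APOA2, APOB, APOE and APOH are red and lie to the right of 0, and APOC1, APOM and MTTP lie within 0.5 of it.

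APOA1, on the minus strand at chr11:116835751-116837614, had 12 counts or fewer in every library that had not received HGF. Its FPKM was 0.05, 0 and 0.04 in NC, 0.05, 0 and 0.14 in Activin, and 0.55, 0.42 and 0.49 in Activin+HGF libraries, from 4, 0 and 4, then 4, 0 and 12, then 50, 42 and 46 counts. Each Activin+HGF library was above all 6 others, while NC and Activin overlapped. Mean CPM was 0.0383 in NC, 0.0713 in Activin and 0.749 in Activin+HGF cells. The log2 fold change was 4.22 (SE 1.29, n = 3 per group) for Activin+HGF against NC, 3.34 (SE 1.22) against Activin, and 0.89 (SE 1.24) for Activin against NC. That call against NC did not survive the removal of any single library of the 6 compared, at log2 fold changes of 3.63 to 4.72. The antisense gene APOA1-AS overlaps APOA1 on the other strand and had 0 to 21 counts per library, the highest in Activin replicate 1, and whether counting used the strand is not given in the sources used here.

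APOA2, on the minus strand at chr1:161222292-161223631, had no count in any NC library. Its FPKM was 0, 0.08 and 0.05 in Activin and 0.19, 0.72 and 0.42 in Activin+HGF libraries, from 0, 6 and 4 and then 16, 62 and 34 counts. The Activin+HGF libraries lay above the Activin libraries but differed among themselves by more than 3-fold. Against a floor of 3 counts in NC, APOA2 was at least 11.7-fold higher in Activin+HGF cells. Against Activin the log2 fold change was 3.50 (SE 1.27, n = 3 per group), which was not called by edgeR but was called by DESeq2. APOA1 and APOA2, which share the high density lipoprotein particle as proteins, were thus both below 0.15 FPKM in every library that had not received HGF.

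APOE, on the plus strand at chr19:44905791-44909393, was the most abundant member. Its FPKM was 0.81, 0.39 and 0.48 in NC, 0.79, 1.55 and 0.43 in Activin, and 3.32, 3.14 and 2.37 in Activin+HGF libraries, from 119, 66 and 96, then 126, 248 and 75, then 595, 600 and 433 counts. All 3 Activin+HGF libraries were above all 6 others, and the highest Activin library was replicate 2. Mean CPM was 1.37 ± 0.506 (SD, n = 3) in NC, 2.23 ± 1.55 in Activin and 8.80 ± 2.09 in Activin+HGF cells. The log2 fold change was 2.68 (SE 0.501) for Activin+HGF against NC, a call that held with any of the 6 libraries removed in turn and under 11 of 11 other alternatives. It was 1.99 (SE 0.486) for Activin+HGF against Activin. That call was lost without Activin replicate 1 (log2 fold change 1.77) or replicate 3 (1.57) and without Activin+HGF replicate 1 (1.80) or replicate 2 (1.99), with the direction the same in each. For Activin against NC it was 0.70 (SE 0.479), and the groups overlapped.

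APOC1 lies next to APOE at chr19:44914247-44919346 on the same strand, and its values did not follow those of its neighbor. Its FPKM was 0, 0.21 and 0.21 in NC, 0.03, 0.04 and 0.15 in Activin, and 0.17, 0.16 and 0.11 in Activin+HGF libraries, from 0 to 25 counts. The 3 groups overlapped. The log2 fold change was 0.37 for Activin+HGF against NC, 1.14 against Activin and -0.77 for Activin against NC, with standard errors near 1.2. APOC3, beside APOA1 at chr11:116829706-116833072 but on the plus strand, was listed at 0 in 8 of the 9 libraries and had 4 counts, or 0.05 FPKM, in Activin+HGF replicate 3.

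APOM had its highest mean after activin alone, as did APOB and MTTP. Its FPKM was 0.44, 0.37 and 0.47 in NC, 0.67, 1.29 and 0.89 in Activin, and 0.54, 0.53 and 0.37 in Activin+HGF libraries, from 37 to 118 counts. The Activin libraries were above all NC and all Activin+HGF libraries in FPKM, and the other two groups overlapped. The log2 fold change was 1.08 (SE 0.437, n = 3 per group) for Activin against NC, -0.62 (SE 0.433) for Activin+HGF against Activin and 0.46 (SE 0.436) for Activin+HGF against NC, and none was called. APOM lies at chr6:31652416-31658210 on the plus strand. The start of this deposited span overlaps BAG6 on the minus strand, which ends at 31652705 and had 11760 to 22095 counts per library. The window before the RefSeq start of APOM ends at 31655893, beyond BAG6. How many of the APOM counts belong to BAG6 cannot be told apart without strand information.

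**Figure D3:**
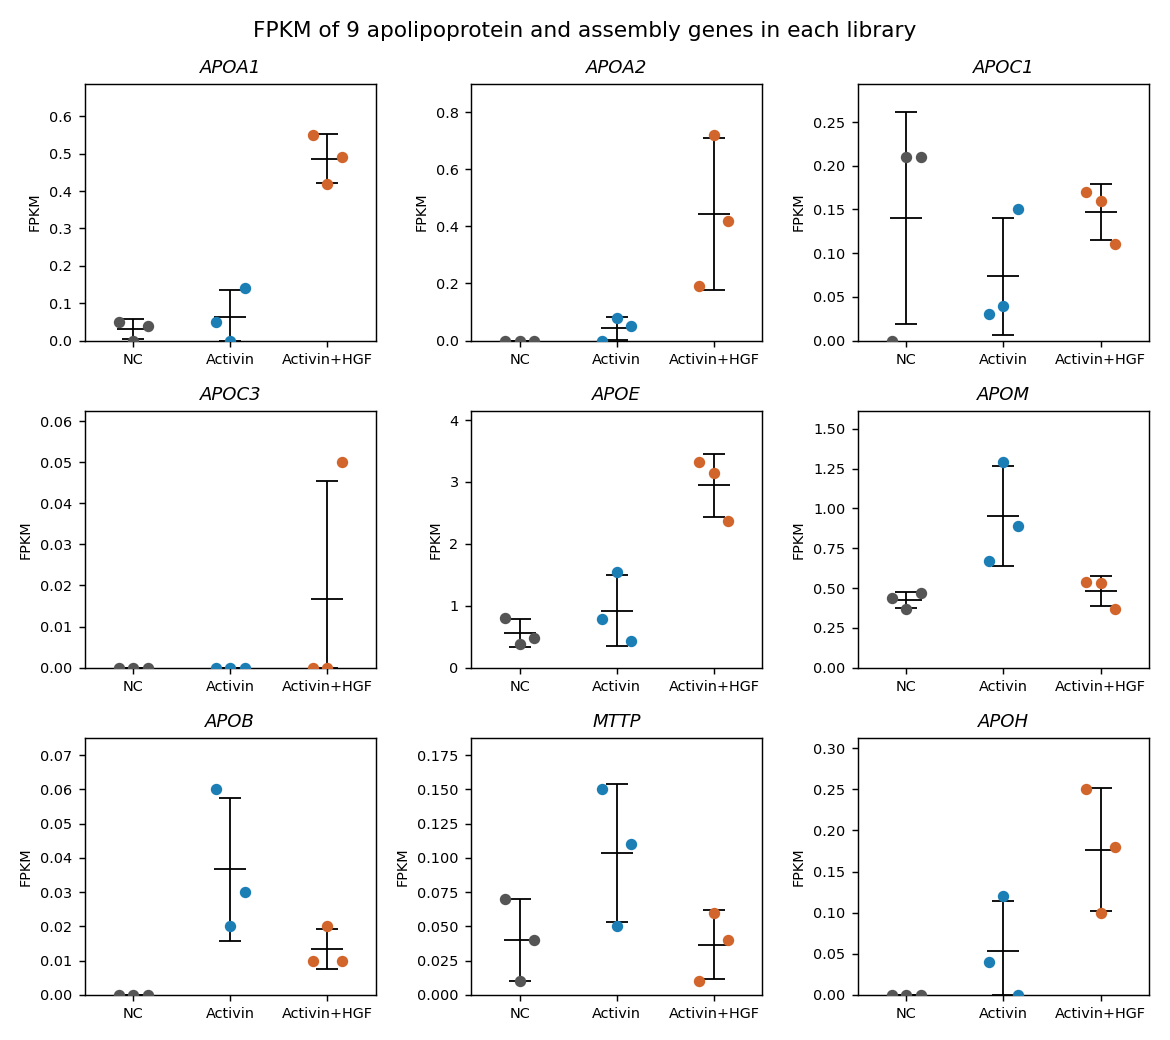
FPKM (y axis, a scale of its own for each gene) of the 9 genes in the 9 libraries by group (x axis), with a point for each library and lines at the mean with 1 SD (n = 3, cut at 0). APOE, APOA1 and APOA2 are highest in the 3 Activin+HGF libraries, APOM is highest in the 3 Activin libraries, and APOB, APOA2 and APOH are at 0 in all NC libraries.

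APOB and MTTP, the scaffold and the lipid transfer protein of particle assembly, were both at low levels. APOB, on the minus strand at chr2:21001429-21044073, had no count in NC, 65, 22 and 34 counts in Activin, and 16, 27 and 15 counts in Activin+HGF libraries. Since APOB is a long gene these counts came to 0.02 to 0.06 FPKM in Activin and 0.01 to 0.02 FPKM in Activin+HGF libraries. Every treated library was above every NC library, and the Activin and Activin+HGF groups overlapped in CPM. Against a floor of 3 counts APOB was at least 11.5-fold higher in Activin and at least 6.26-fold higher in Activin+HGF cells than in NC cells. Both calls held with each library left out, and both were lost on the FPKM values, where the log2 fold change of FPKM + 0.1 was 0.44 and 0.18. Between Activin+HGF and Activin it was -0.87 (SE 0.756).

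MTTP, on the plus strand at chr4:99563761-99623997, had 26, 4 and 19 counts in NC, 59, 19 and 47 in Activin, and 4, 27 and 18 in Activin+HGF libraries. Its FPKM was 0.01 to 0.07, 0.05 to 0.15 and 0.01 to 0.06 in the same groups. The groups overlapped in each comparison. The log2 fold change was 1.26 for Activin against NC, -1.20 for Activin+HGF against Activin and 0.06 for Activin+HGF against NC, with standard errors near 0.87, and none was called. TRMT10A, which ends at 99564032, overlaps the start of this deposited span on the other strand. It had 484, 495 and 503 counts in NC, 718, 336 and 880 in Activin, and 566, 597 and 566 in Activin+HGF libraries. The window before the RefSeq start of MTTP ends at 99564129, beyond TRMT10A. How many of the MTTP counts belong to TRMT10A cannot be told apart without strand information.

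APOH, on the minus strand at chr17:66212033-66256525, had no count in NC, 4, 12 and 0 counts in Activin, and 29, 12 and 21 counts in Activin+HGF libraries. Its FPKM was 0.04, 0.12 and 0 in Activin and 0.25, 0.10 and 0.18 in Activin+HGF libraries. All Activin+HGF libraries were above NC, and they overlapped with Activin replicate 2. Against a floor of 3 counts APOH was at least 7.04-fold higher in Activin+HGF than in NC cells, and its log2 fold change against Activin was 2.06 (SE 1.41). Its call against NC held on removal of Activin+HGF replicate 2 and was lost on removal of any of the other 5 libraries, and of both libraries that stood apart. The fitted change of a gene at 0 in a group depends on the prior count and is not given.

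The order of the members by mean FPKM therefore differed between groups. In NC cells it ran from APOE (0.560) and APOM (0.427) to APOC1 (0.140), MTTP (0.0400) and APOA1 (0.0300), with the rest at 0. APOE and APOM did not differ beyond their spread there, with ranges of 0.39 to 0.81 and 0.37 to 0.47. In Activin cells APOM (0.950) and APOE (0.923) were level, followed by MTTP (0.103) and APOC1 (0.0733), and the rest were at 0.0633 or below. In Activin+HGF cells APOE (2.94) stood clear of APOA1 (0.487), APOM (0.480) and APOA2 (0.443), whose ranges overlapped, and of APOH (0.177) and APOC1 (0.147). APOB, MTTP and APOC3 were each under 0.05 FPKM on average in Activin+HGF cells.

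For the 2 most abundant members, the genes with the most similar log2 CPM over the 9 libraries were looked up among 17489 genes. For APOE these were ITGB7, an integrin subunit (r = 0.978), DGAT1, an enzyme of triglyceride synthesis (r = 0.978), and COL6A1, a collagen chain (r = 0.975), and 502 genes had r above 0.9. DGAT1 was far more abundant than APOE, with 6.86 to 8.48 FPKM in NC, 8.31 to 11.43 in Activin and 10.94 to 12.54 in Activin+HGF libraries. For APOM they were TPTEP2 (r = 0.964), GATAD2B (r = 0.945) and SERTAD4 (r = 0.943), and 16 genes had r above 0.9. These correlations describe 9 libraries of 3 groups that share depth and treatment.

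The rest of the lipoprotein pathway was read from 5 lists of 102 further genes, of which 94 had a row and 74 were tested. These lists were chosen with earlier results of these data known, so the shares called here and below are a description only. For Activin against NC 7 were called higher and 1 lower, for Activin+HGF against Activin 2 were called higher and 4 lower, and for Activin+HGF against NC 15 were called higher and 4 lower. The median log2 fold changes were 0.36, 0.11 and 0.19. In percent of the tested genes, 9.46, 2.70 and 20.3 were higher in the 3 comparisons, beside 6.78, 3.87 and 11.3 of all genes, and 1.35, 5.41 and 5.41 were lower, beside 4.62, 4.21 and 10.2 of all genes. The count of 8 for Activin against NC became 4 without NC replicate 3, the count of 6 for Activin+HGF against Activin became 2 without Activin replicate 1 and 10 without Activin replicate 2, and the count of 19 for Activin+HGF against NC became 12 without NC replicate 2 or 3.

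**Figure D4:**
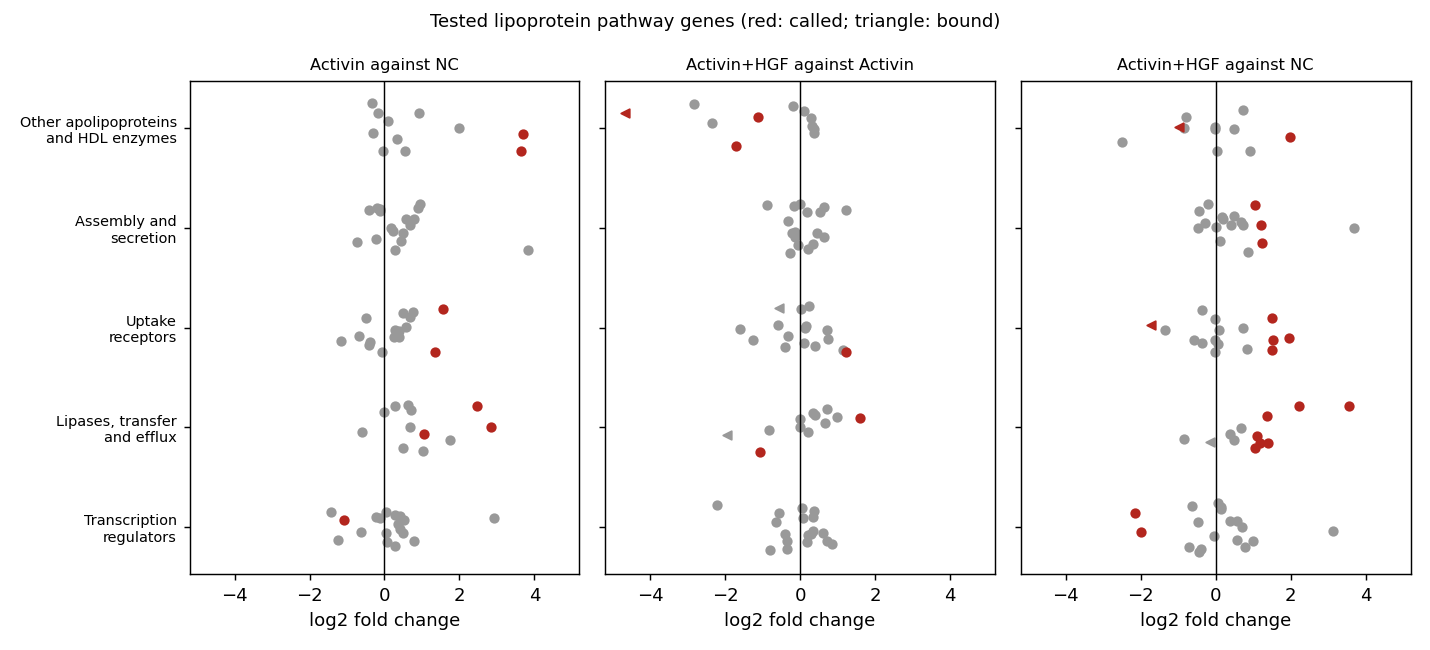
Fitted log2 fold changes (x axis) of the 74 tested pathway genes in 5 lists (y axis, points spread up and down only to separate them) for the 3 comparisons; red marks called genes and triangles mark genes shown at the bound set by a group at 0. The lipase, transfer and efflux list has 7 red points to the right of 0 for Activin+HGF against NC and none to the left.

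Of 12 tested genes for lipases, lipid transfer and efflux, 7 rose in Activin+HGF cells against NC (ANGPTL4, LCAT, LIPG, LMF1, NPC1, NPC1L1 and PLTP). That was 58.3%, beside 11.3% of all genes called higher. The other 5 were not called, and 0 were called lower by edgeR or DESeq2, with 1 lower at an unadjusted p under 0.05. The groups of LIPG overlapped, and without both libraries that stood apart LCAT (0.99) and LIPG (0.58) were not called. ANGPTL4, an inhibitor of lipoprotein lipase, had 2.60, 4.22 and 3.06 FPKM in NC, 19.96, 32.26 and 21.98 in Activin, and 40.39, 26.16 and 26.74 in Activin+HGF libraries. All 6 treated libraries were above NC, and the log2 fold change was 2.85 (SE 0.344, edgeR adjusted p = 0.000481) for Activin and 3.56 (SE 0.355, edgeR adjusted p = 9.99e-05) for Activin+HGF against NC. PLTP, the phospholipid transfer protein, had 1.07, 1.62 and 1.39 FPKM in NC, 6.76, 9.71 and 7.28 in Activin, and 2.91, 2.87 and 2.98 in Activin+HGF libraries. It rose with activin by 2.47 on the log2 scale (SE 0.269, edgeR adjusted p = 0.000288) and fell by 1.08 between Activin and Activin+HGF cells (SE 0.257, edgeR adjusted p = 0.0249), and its group means stood in the same order as those of APOM. The call of that second step was lost without Activin replicate 2 (-0.81) and without Activin+HGF replicate 2 (-1.02) or 3 (-1.06), and the change was -0.88 without both libraries that stood apart. ABCA1, the transporter that loads lipid onto APOA1, was not called in any comparison, with log2 fold changes of -0.02 (SE 0.399), -0.83 (SE 0.404) and -0.85 (SE 0.404).

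Among the receptors and regulators of uptake, 16 were tested. MYLIP, a ubiquitin ligase that limits lipoprotein uptake, rose by 1.54 in Activin+HGF against NC (SE 0.397, edgeR adjusted p = 0.0149), but Activin+HGF replicate 1 held 13.56 FPKM beside 4.92 and 5.31 in the other two, and the change was 0.77 without that library. The call was also lost without NC replicate 2 (1.45) or 3 (1.5), and the change was 0.78 without both libraries that stood apart. AMN was called higher in both treated groups against NC and LSR in Activin+HGF cells against NC, and STAB1 was called lower in Activin+HGF cells against NC at 0 counts in that group, a call that was lost without both libraries that stood apart.

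Of 17 tested genes of assembly and secretion, 3 (P4HB, SEC24D and SURF4) rose in Activin+HGF against NC, or 17.6% beside 11.3% of all genes. By edgeR 0 of the 17 were called in the other comparisons, where at an unadjusted p under 0.05 5 were higher and 1 lower in Activin against NC and 4 were higher and 1 lower in Activin+HGF against Activin, and DESeq2 called 0 in either. P4HB, or protein disulfide isomerase, is the small subunit of the transfer complex that MTTP forms, and it was abundant in every library. It had 152.88, 146.97 and 146.49 FPKM in NC, 203.44, 285.62 and 203.89 in Activin, and 295.17, 276.33 and 265.12 in Activin+HGF libraries. The log2 fold change for Activin+HGF against NC was 1.21 (SE 0.212, edgeR adjusted p = 0.00204), and 0.93, below the minimum, under library totals. The mean FPKM of MTTP was 0.0367 in the same Activin+HGF libraries. SAR1B, a GTPase of the coat that carries large lipoproteins, was not called, with log2 fold changes of -0.24, 0.34 and 0.10 (SE 0.202 in each). TM6SF2, a protein of lipid loading, was listed at 0 but for 6 counts in Activin+HGF replicate 1.

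Of 11 other tested apolipoproteins and lipoprotein-bound enzymes, APOL3 and APOL6 rose in Activin against NC and APOL2, APOL3 and APOL6 fell in Activin+HGF against Activin. These were 18.2% called higher, beside 6.78% of all genes, and 27.3% called lower, beside 4.21% of all genes. The APOL genes encode a family named after a plasma apolipoprotein, of which most members act inside cells. APOL6 had 0.05, 0.09 and 0.12 FPKM in NC, 1.53, 0.87 and 1.35 in Activin, and 0.24, 0.38 and 0.26 in Activin+HGF libraries, and the 3 groups did not overlap. Its log2 fold change was 3.69 (SE 0.374, edgeR adjusted p = 0.000192) for Activin against NC, and it fell by 1.70 when HGF followed activin (SE 0.343, edgeR adjusted p = 0.0137). This second call was lost without Activin replicate 1 (-1.65). APOL2 fell by 1.13 on the log2 scale between Activin and Activin+HGF (SE 0.26, edgeR adjusted p = 0.0216), and the call was lost without Activin replicate 1 (-1.10) or 2 (-0.95) or Activin+HGF replicate 3 (-1.01), and without both libraries that stood apart (-0.97). APOL3 had 88, 104 and 99 counts in Activin and none in Activin+HGF libraries, and without both libraries that stood apart it was called only between these groups, not against NC.

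Of 18 tested transcription regulators of the pathway, 0 were called higher by edgeR in any comparison, beside 6.78, 3.87 and 11.3% of all genes. At an unadjusted p under 0.05, 2, 2 and 4 were higher in the 3 comparisons, and DESeq2 called 1 higher, in Activin+HGF against NC. In that comparison FOXA1 came just under the minimum in the edgeR fit, at 1.9999-fold (edgeR adjusted p = 0.0407), and its groups did not overlap. HNF4A, a nuclear receptor that drives apolipoprotein genes in liver and gut, had 0.42, 0.36 and 0.30 FPKM in NC, 0.62, 0.88 and 0.42 in Activin, and 0.37, 0.38 and 0.22 in Activin+HGF libraries. NC and Activin touched at 0.42 FPKM, Activin and Activin+HGF overlapped in CPM but not in FPKM, and the log2 fold changes were 0.78 (SE 0.374), -0.63 (SE 0.374) and 0.15 (SE 0.373), none of them called. NR2F1, an orphan nuclear receptor, fell in Activin against NC by 1.07 on the log2 scale (SE 0.198, edgeR adjusted p = 0.00486), from 21.01 to 24.84 FPKM in NC to 10.36 to 11.78 in Activin libraries, and came under the minimum without NC replicate 3 (-0.99) or Activin replicate 3 (-0.95). PPARA, a receptor for fatty acids, fell in Activin+HGF against NC by 2.15 (SE 0.742, edgeR adjusted p = 0.0491), and the call was lost with each of the 6 libraries left out, at -2.47 to -1.32, and without both libraries that stood apart (-1.85). NR5A2 was the other gene called lower in Activin+HGF against NC, which made 11.1% of the list lower beside 10.2% of all genes.

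Markers of the cells that normally make apolipoproteins were read from the same libraries. The 8 hepatocyte markers summed to 0.72 to 1.01 FPKM in NC, 2.53 to 3.45 in Activin and 3.14 to 4.01 in Activin+HGF libraries, most of it SERPINA1. Of the 6 tested, 3 were called higher in Activin and 6 in Activin+HGF cells against NC, and 0 between Activin+HGF and Activin, where 1 was higher at an unadjusted p under 0.05 and 1 was called by DESeq2. Over all genes, 6.78, 11.3 and 3.87% were called higher in these comparisons. ALB had 8, 33 and 4 counts in NC, 38, 12 and 47 in Activin, and 65, 79 and 76 in Activin+HGF libraries, and TTR was at 0 in all NC and Activin libraries. The 5 enterocyte markers, 3 of them with a row, summed to at most 0.47 FPKM in any library. Their sums were 0 to 0.07 FPKM in NC, 0.05 to 0.15 in Activin and 0.15 to 0.47 in Activin+HGF libraries. Only ANPEP was tested. It was called higher in Activin+HGF against NC, with a log2 fold change of 3.87 (SE 1.03), and these groups did not overlap. In the other comparisons ANPEP was not called. The 10 colon epithelium markers summed to 393 to 451 FPKM in NC, 305 to 411 in Activin and 386 to 438 in Activin+HGF libraries. Most of this sum was KRT8, KRT18 and EPCAM, so it says little about the other markers. CDX1 was at 0 in all NC and Activin+HGF libraries and GPA33 at 0 in all Activin+HGF libraries. Of the 8 tested, KRT20 was called lower in Activin against NC, and KRT20 and GPA33 in Activin+HGF against NC. In both of these comparisons 0 were called higher. Between Activin+HGF and Activin, EPCAM was called higher and GPA33 lower. The log2 fold change of KRT20 against NC was -1.63 (SE 0.409) for Activin and -1.34 (SE 0.406) for Activin+HGF. The 4 blood and macrophage markers, mainly CD68, summed to 0.77 to 1.56, 4.57 to 8.79 and 5.90 to 7.78 FPKM, and 5 markers of stroma and endothelium to 2.35 to 2.5, 4.38 to 5.87 and 2.82 to 3.54 FPKM, with PTPRC at 0 in NC libraries. Of 3 tested blood and macrophage markers, CD68 and CSF1R were called higher in Activin against NC. CD68 was also called higher in Activin+HGF against NC, and CSF1R was called lower in Activin+HGF against Activin. Of 3 tested stroma and endothelium markers, COL1A1 was called higher in Activin against NC. By edgeR or DESeq2, 0 of these 3 were called in the other comparisons. These levels moved with the group, and their part in the values of the apolipoprotein genes was not tested.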

How the data were processed

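Total RNA of HCT116 cells was depleted of ribosomal RNA and sequenced as paired ends. The authors deposited 1 table of 33861 genes with counts of reads per gene, without normalization, and FPKM values scaled to depth and gene length and rounded to 2 decimals. The submitters' processing notes name cutadapt 1.9, HISAT2 2.0.4 and StringTie 1.3.4d. The genome build, annotation and strand setting are not given in the sources used here. The coordinates lie on GRCh38, where 82.4% of 32930 matched genes fall within their GENCODE 29 span. All per-library columns were used.

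Groups and replicate numbers follow the library titles. The members and lists were chosen with earlier results of these data known. Counts were fitted with edgeR 4.0.16 (filterByExpr, TMM scaling, glmQLFit, glmQLFTest) in R 4.3.3, with 9 libraries and group means, and 20988 genes passed the filter. Calls used p adjusted by Benjamini-Hochberg, under 0.05, with a log2 change of 1 or more in size. Over groups of 3 against 3 an exact permutation test could not go below 0.1 and was not run. Where a group was at 0, the fold was bounded by 3 counts in its smallest library, set against the mean of the other group with no allowance for its spread. Chi-square over degrees of freedom between replicates was 61.5 to 281, far above sampling noise, and each library was counted as its own sample.

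On counts simulated for Activin+HGF against NC over 19552 genes, 126 of 200 genes changed by a log2 fold change of 2 were recovered, with 6 false calls. The changed genes were drawn only from those above a minimum expected count on the NC profile. APOA1, APOA2, APOB and APOH, at 4 counts or fewer in NC libraries, fell below it, so recovery was not measured at their level.

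Genes named were the members; P4HB, TM6SF2, SAR1B, ABCA1 and HNF4A; for each comparison the 3 called pathway genes with the largest increase and the 3 with the largest decrease at a mean of at least 1 FPKM in the higher group; and the 3 genes most like each of the 2 most abundant members. Some genes that this rule names are not reported here. Other genes were named after their values were seen, to say which genes a count held or narrowly missed. Alternatives were RLE factors, library totals, no filter, at least 1 CPM in 3 libraries, the replicate block, only the 2 groups compared, DESeq2 1.42.0, limma 3.58.1 on log2(FPKM + 0.1) and log2(FPKM + 1), counts divided by 4, no minimum fold and each library left out. Leaving out Activin replicate 2 and Activin+HGF replicate 1 together was chosen after seeing the data.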

Additional observations from a re-analysis of the deposited data

How the results depend on the processing

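The counts of called members were 1, 1 and 5 for Activin against NC, Activin+HGF against Activin and Activin+HGF against NC. For Activin against NC the count was 0 with at least 1 CPM in 3 libraries, with limma on FPKM + 0.1 or FPKM + 1, and with counts divided by 4, since APOB then leaves the table or its low FPKM is covered by the pseudocount. For Activin+HGF against Activin it was 0 with only the 2 groups compared, 3 with DESeq2 and 3 with limma on FPKM + 0.1 (APOA1 and APOA2 in addition), and 0 to 1 with a library left out. For Activin+HGF against NC it was 1 with at least 1 CPM, with limma on FPKM + 1 and with counts divided by 4, and 3 to 4 with a library left out. The counts of called pathway genes were 8, 6 and 19. They were 4, 3 and 3 with limma on FPKM + 1 and 13, 10 and 30 with no minimum fold, 2 for Activin+HGF against Activin with only the 2 groups compared, and 10 for Activin+HGF against NC with limma on FPKM + 0.1. With a library left out they were 4 to 8, 2 to 10 and 12 to 15. No called member or called pathway gene changed direction in any alternative in which it was fitted. Of 366 refitted member values 307 kept their direction and side of the threshold, or moved by less than the spread between replicates, and of 663 refitted values of the pathway genes that the naming rule picked 577 did.

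Over all genes the 3 comparisons called 2394, 1697 and 4519 genes, and 1176, 660 and 2206 with limma on FPKM + 1. With no minimum fold they called 3776, 2698 and 6587. Activin+HGF against Activin called 677 genes with only the 2 groups compared and 606 to 2418 with a library of either group left out. The share of calls that were higher was 17.0% with limma on FPKM + 0.1 for Activin+HGF against Activin, and 30.6% for Activin+HGF against NC.

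The replicate numbers did not pair the libraries, since libraries with the same number had correlated deviations of -0.0606 to 0.0882 and libraries with different numbers -0.0825 to 0.1077. With the replicate block the counts of called members were 1, 1 and 4, with APOH lost, those of pathway genes were 7, 6 and 15, and those of all genes 2218, 1366 and 4222. Depth limits APOB, APOH, APOA1, APOA2, APOC1, APOC3 and MTTP, which had 65 counts or fewer in every library.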
